A study of Homo sapiens with 18 samples.

Results

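The genes described here encode the subunits of the SWI/SNF complexes, also called BAF complexes, in human neuroblastoma cells in which the SMARCA4 subunit itself was inhibited or degraded. The members were the rows of the deposited count tables whose gene symbol is one of 30 fixed subunit names, and all 30 were found among the 28063 genes listed. A filter on low counts kept 29 of the 30 members and 12853 genes in all, and the member it dropped was BCL7C. The series holds 18 libraries of newly made messenger RNA in 9 groups of 2, and 16 of these libraries in 8 groups were labelled with 4-thiouridine. SK-N-DZ, KELLY and IMR-32 are established neuroblastoma lines, described as wild type in the labels, and each was given 1 uM BRM014 or an equal volume of the solvent DMSO. BRM014 is a small molecule that inhibits the ATPases SMARCA4 and SMARCA2. SMARCA4-mAID is an engineered IMR-32 line whose SMARCA4 carries a mini auxin-inducible degron, a tag through which auxin directs the protein to degradation, and it was given 500 uM auxin or ethanol. In all 8 of these groups the cells received 500 uM 4-thiouridine for 2 h before harvest, the RNA was treated with iodoacetate and the messenger RNA was captured on poly(dT). The last group was KELLY cells without 4-thiouridine, which measures background. The sources used here do not give the exposure time to either agent, nor whether the SMARCA4-mAID line is 1 clone. Per the labels, IMR-32 cells were grown in another basal medium than KELLY and SK-N-DZ cells, so line and medium cannot be told apart in comparisons between these lines.

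SWI/SNF complexes use the energy of ATP to slide or evict nucleosomes, and each complex carries 1 of the ATPases SMARCA4 (BRG1) and SMARCA2 (BRM). Around the ATPase and a core of SMARCC, SMARCD and other subunits, 3 forms are distinguished: canonical BAF with an ARID1 subunit, a DPF subunit and SS18 or SS18L1; PBAF with ARID2, PBRM1, BRD7 and PHF10; and non-canonical BAF with BRD9, either BICRA or BICRAL, and SS18 or SS18L1. Non-canonical BAF lacks SMARCE1 and SMARCB1, which the other forms hold. Most positions can be filled by alternative paralogs, and in the mouse nervous system progenitors exchange ACTL6A, SS18 and PHF10 or DPF2 for ACTL6B, SS18L1 and DPF1 or DPF3 as they become neurons.

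The labels say neuroblastoma, and the adrenergic regulators HAND2 and GATA3 and the oncogene MYCN were present in all 8 labelled groups, with group means of 608 to 1260, 434 to 1920 and 3680 to 8270 CPM (a gene's counts per 1000000 counts of its library, scaled with edgeR's trimmed-mean factors, as are all CPM below). The catecholamine enzymes TH and DBH had group means of 0 to 3 CPM in IMR-32 and SMARCA4-mAID cells. Both were lower with BRM014 in the other lines. DBH stood at 5.85 CPM with BRM014 against 172 CPM with DMSO in SK-N-DZ and at 28.5 against 213 CPM in KELLY (log2 changes -4.86 and -2.90, edgeR adjusted p = 1.477e-17 and 1.53e-14). TH had 0 counts with BRM014 against 59 with DMSO in SK-N-DZ, and 1 against 286 in KELLY. The part of these differentiation markers in the subunit changes was not tested. Of the mesenchymal markers, PRRX1 and COL1A1 had at most 4 counts in any group, COL3A1 had 45 and 44 counts in SK-N-DZ with BRM014 and DMSO and at most 4 in the other groups, and SNAI2, FN1 and TWIST1 had group means of up to 144, 228 and 436 CPM. FN1 and TWIST1 were called higher for the mean BRM014 effect over lines (log2 changes 0.69 and 0.31). In single lines, 4 mesenchymal markers were tested. With BRM014, 1 was called higher and 0 lower in KELLY, against 6.57% and 4.98% of all genes tested. IMR-32 had 0 higher and 1 lower, against 6.26% and 6.57% of all genes. SK-N-DZ had 0 called, with 0 at an unadjusted p below 0.05 and 0 in DESeq2, against 19.4% of all genes called. For 1 of the 4 the BRM014 effect itself was called as different among lines, against 6.47% of all genes. The Schwann marker SOX10 and the blood marker PTPRC had at most 3 counts each in any labelled group, and S100B, another Schwann marker, and HBB, of red blood cells, had none in these groups. Labelled libraries held 724913 to 1740475 gene counts. The BRM014 libraries were shallower than their DMSO libraries in SK-N-DZ (724913 and 758288 against 1589230 and 1740475) and in IMR-32 (741970 and 775064 against 1438139 and 1148208). The unlabelled KELLY libraries held 15 counts over all members, against 8770 in KELLY DMSO, which is 0.171% of the raw counts and 49.2% when each library is scaled to its own total. Over all genes the raw share was 0.348%.

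Start regions from RefSeq are shown for BICRAL and SS18, which rose under BRM014, and for DPF1, which fell, to set the letters around their starts side by side. Of the 30 members, 26 had entries, 47 in all, each from 250 bases before to 50 bases after an annotated start on GRCh38.p14. SMARCC1, SMARCC2, ARID2 and ACTL6A had no entry. BICRAL has several annotated starts. The windows shown are chr6:42746737-42747036 (plus strand, at the gene's upstream start) and chr6:42781802-42782101 (plus strand, at a start inside the gene). SS18 has 2 annotated starts, and the window shown is chr18:26090564-26090863 (minus strand, at the downstream start), and the DPF1 window is chr19:38229646-38229945 (minus strand). Capitals mark every CCAAT box (CCAAT on either strand, so CCAAT or ATTGG) and every GC box (GGGCGG on either strand, so GGGCGG or CCGCCC), and no match overlapped another.
BICRAL upstream start: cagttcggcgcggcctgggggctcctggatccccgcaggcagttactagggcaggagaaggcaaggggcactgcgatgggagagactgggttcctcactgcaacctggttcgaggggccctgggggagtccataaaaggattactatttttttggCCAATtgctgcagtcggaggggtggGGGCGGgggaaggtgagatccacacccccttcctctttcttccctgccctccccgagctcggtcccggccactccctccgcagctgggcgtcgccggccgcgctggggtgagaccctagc
BICRAL internal start: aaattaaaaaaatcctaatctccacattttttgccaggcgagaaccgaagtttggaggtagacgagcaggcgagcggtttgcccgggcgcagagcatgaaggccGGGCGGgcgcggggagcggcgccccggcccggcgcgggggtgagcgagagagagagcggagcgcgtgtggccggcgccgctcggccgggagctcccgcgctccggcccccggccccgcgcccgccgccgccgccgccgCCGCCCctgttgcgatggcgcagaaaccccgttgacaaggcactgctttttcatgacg
SS18: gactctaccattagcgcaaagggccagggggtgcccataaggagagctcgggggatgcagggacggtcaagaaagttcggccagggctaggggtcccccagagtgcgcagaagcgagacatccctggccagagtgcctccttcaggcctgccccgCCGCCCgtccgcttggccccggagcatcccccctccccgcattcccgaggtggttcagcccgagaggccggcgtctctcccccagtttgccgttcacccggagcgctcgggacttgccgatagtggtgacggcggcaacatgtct
DPF1: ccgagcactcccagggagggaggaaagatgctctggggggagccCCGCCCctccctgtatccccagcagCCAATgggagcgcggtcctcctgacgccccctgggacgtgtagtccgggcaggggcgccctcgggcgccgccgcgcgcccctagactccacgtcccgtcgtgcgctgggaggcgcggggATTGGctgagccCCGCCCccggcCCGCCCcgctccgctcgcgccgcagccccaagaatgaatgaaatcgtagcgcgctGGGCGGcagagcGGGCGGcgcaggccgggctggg
The BICRAL upstream window held 1 CCAAT box and 1 GC box at 65.3% GC, and its internal window held 2 GC boxes and 43 CpG dinucleotides. The SS18 window shown held 1 GC box and no CCAAT box at 67.0% GC, and the window at its upstream start, not shown, held 1 CCAAT box and no GC box at 56.7% GC. The DPF1 window, from the member that fell, held 2 CCAAT boxes and 5 GC boxes at 75.3% GC. A GC box was found in 35 of the 47 member windows and in 45% of all 35116 windows of the same length, and a CCAAT box in 14 of 47 and in 34.6% of all windows. An E-box (CACGTG) was found in 3 of 47 windows, against 7.26% of all windows, and a TATA box (TATAAA) in 3 of 47, against 11.5%. These matches describe the letters of the windows only.

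With BRM014, 3 subunit genes were called higher and 1 lower in every line. The share of all genes called in every line is not given here, so this count cannot be set against a background. BICRAL, ARID2 and ARID1B were called higher, BICRAL by 1.65 to 1.79 on the log2 scale, and DPF1 was called lower, although its calls in SK-N-DZ and KELLY were lost after correction for GC content and length. SS18 was called higher in SK-N-DZ and IMR-32. A gene was called at an adjusted p below 0.05 in edgeR's quasi-likelihood test, with Benjamini-Hochberg adjustment over 12853 genes. In SK-N-DZ, 5 members were called higher and 2 lower of 29 (24.1% called), against 9.88% and 9.55% of all genes tested (19.4% called). In KELLY, 6 were higher and 1 lower (24.1%), against 6.57% and 4.98% of all genes (11.6%). In IMR-32, 4 were higher and 1 lower (17.2%), against 6.26% and 6.57% (12.8%). Auxin in SMARCA4-mAID cells gave 2 members higher and 0 lower (6.9%), against 1.03% and 1.16% of all genes (2.19%), with 1 member lower at an unadjusted p below 0.05 and 0 lower in DESeq2, which called 1 higher. For the mean BRM014 effect over the 3 lines, 9 members were higher and 3 lower (41.4%), against 14.8% and 15.3% of all genes (30.2%). Those higher were BICRAL (1.71), ARID2 (0.89), BICRA (0.70), SS18 (0.68), ARID1B (0.64), BCL11A (0.54), SS18L1 (0.29), PBRM1 (0.28) and ARID1A (0.25), and those lower were DPF1 (-2.18), BRD9 (-0.72) and BCL7B (-0.48), in mean log2 change. The median log2 change of the members was 0.07 in SK-N-DZ, 0.22 in KELLY, 0.12 in IMR-32 and -0.02 with auxin. Over all genes it was -0.04, 0.00, -0.02 and 0.00. DPF3 in SK-N-DZ and SMARCA2 in KELLY had at most 3 counts in both groups and were left out. The members' median therefore rests on 28 members in these lines and on 29 in the other comparisons. As cells were harvested in bulk, fewer cells making a transcript and less transcript per cell cannot be told apart. Whether the libraries of a group are separate cultures is not said in the labels, so every p-value rests on a spread between libraries that may be technical only.

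**Figure D1:**
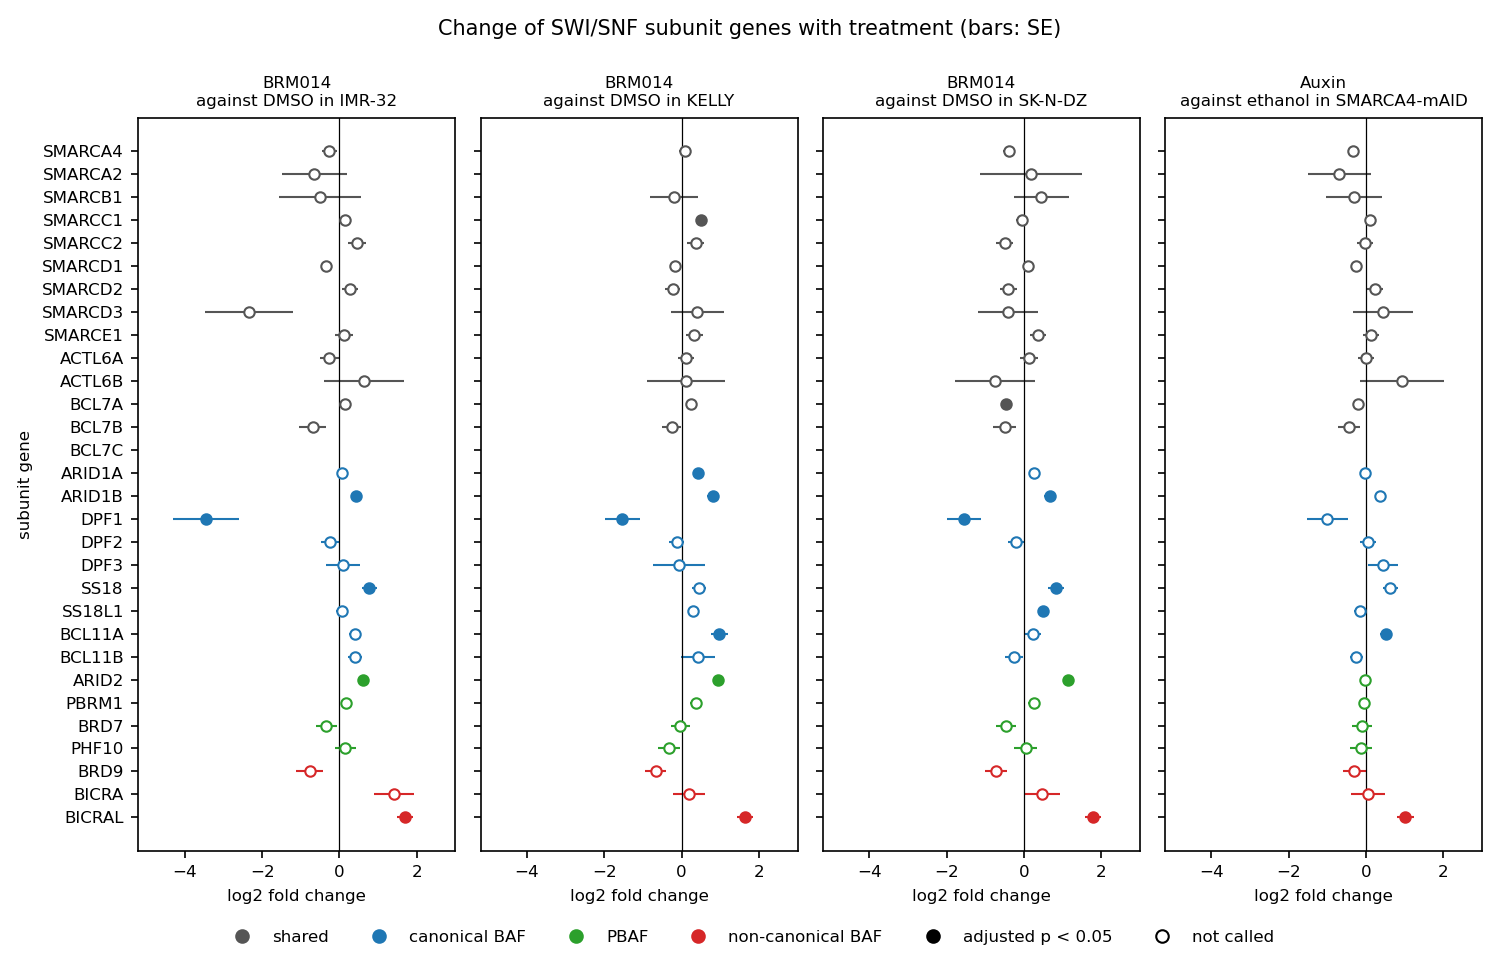
Log2 fold change of each subunit (x axis, treated over vehicle) in 4 panels for BRM014 in the 3 lines and auxin in SMARCA4-mAID. Points are coloured by complex, with bars of 1 SE derived from edgeR's F statistic, and are filled for genes at an adjusted p below 0.05. BICRAL lies between 1.65 and 1.79 in the BRM014 panels and at 1.01 with auxin, and DPF1 is the member called lower in every BRM014 panel.

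Sorted by complex, the calls fell as follows, beside 19.4% of all genes called in SK-N-DZ, 11.6% in KELLY and 12.8% in IMR-32. SS18 and SS18L1 are counted with canonical BAF although non-canonical BAF holds them too, and SMARCE1 and SMARCB1 are counted as shared although non-canonical BAF lacks them. Of the 13 shared subunits tested, 1 was called in SK-N-DZ (BCL7A, lower) and 1 in KELLY (SMARCC1, higher). In IMR-32, 0 shared subunits were called by edgeR, with 2 lower at an unadjusted p below 0.05 and 0 called by DESeq2. Of the 9 subunits of canonical BAF, 3 were higher and 1 lower in SK-N-DZ, 3 higher and 1 lower in KELLY, and 2 higher and 1 lower in IMR-32. In each line 1 of the 4 PBAF subunits (ARID2) and 1 of the 3 non-canonical BAF subunits (BICRAL) was higher.

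In non-canonical BAF, BICRAL had the largest called rise of all members in each line, as counted. BICRAL (chromosome 6, 42746958 to 42868560, plus strand, GRCh38) encodes the GLTSCR1-like subunit that defines this form together with BRD9. BICRAL stood at 261 and 253 CPM in BRM014-treated SK-N-DZ, against 69.5 and 78.2 CPM with DMSO. BICRAL stood at 123 and 185 CPM in BRM014-treated KELLY, against 57.6 and 39.6 CPM with DMSO. BICRAL stood at 296 and 284 CPM in BRM014-treated IMR-32, against 89.0 and 89.7 CPM with DMSO. Treated and vehicle libraries did not overlap in any line. The log2 changes were 1.79 (SE 0.198, edgeR adjusted p = 3.93e-12), 1.65 (SE 0.208, adjusted p = 5.93e-10) and 1.70 (SE 0.201, adjusted p = 9.89e-11) in SK-N-DZ, KELLY and IMR-32. With auxin, BICRAL stood at 95.7 and 93.4 CPM, against 59.9 and 34.6 CPM with ethanol, a log2 change of 1.01 (SE 0.218, edgeR adjusted p = 0.00175). The auxin change was 0.65 and no longer called without ethanol replicate 2, the lower of the ethanol libraries.

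The other non-canonical subunits, BRD9 and BICRA, were called for the mean over lines and, as counted, in no single line. BRD9, a bromodomain protein that reads acetylated lysine, stood at 35.9 and 69.5 CPM with BRM014 against 89.8 and 84.8 CPM with DMSO in SK-N-DZ. BRD9 stood at 50.3 and 51.2 against 82.1 and 79.1 CPM in KELLY, and at 26.5 and 35.1 against 39.0 and 67.7 CPM in IMR-32. All BRM014 libraries lay below the DMSO libraries of the same line. The mean log2 change of BRD9 over the lines was -0.72 (SE 0.176, edgeR adjusted p = 0.000707), with -0.72, -0.67 and -0.77 in SK-N-DZ, KELLY and IMR-32, none of them called. BRD9 shares annotated exon bases with TRIP13 and ZDHHC11, and the sources used here give no strand setting for the counting, so its values are uncertain. BICRA, the paralog of BICRAL, stood at 23.9 and 32.8 against 15.6 and 25.3 CPM in SK-N-DZ, 39.2 and 27.5 against 37.2 and 20.5 CPM in KELLY, and 14.7 and 43.5 against 14.0 and 7.32 CPM in IMR-32. The BICRA libraries overlapped in SK-N-DZ and KELLY, and the mean log2 change of 0.70 (SE 0.271, edgeR adjusted p = 0.0415) was 0.36 and not called without IMR-32 BRM014 replicate 2. The BICRA call was also lost at 0.57 to 0.61 without IMR-32 DMSO replicate 2, KELLY BRM014 replicate 1, KELLY DMSO replicate 2, SK-N-DZ BRM014 replicate 2 or SK-N-DZ DMSO replicate 1, and neither DESeq2 (adjusted p = 0.0555) nor the fit with no filter (0.68, adjusted p = 0.059) called it. With a correction for GC content and length BICRA was called higher in SK-N-DZ (1.28) and IMR-32 (1.94).

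In PBAF, ARID2 rose with BRM014 in each line, and PBRM1, BRD7 and PHF10 were called in none. ARID2 (chromosome 12, 45729665 to 45908040, plus strand) encodes the DNA-binding subunit that defines PBAF. ARID2 stood at 613 and 534 CPM with BRM014 against 263 and 262 CPM with DMSO in SK-N-DZ. ARID2 stood at 353 and 341 against 198 and 163 CPM in KELLY, and at 579 and 494 against 339 and 361 CPM in IMR-32. The groups did not overlap in any line, and the log2 changes were 1.13 (SE 0.119, edgeR adjusted p = 6.72e-13), 0.94 (SE 0.122, adjusted p = 1.77e-09) and 0.62 (SE 0.121, adjusted p = 7.46e-05) in SK-N-DZ, KELLY and IMR-32. In SMARCA4-mAID cells ARID2 stood at 435 and 418 CPM with auxin and 463 and 401 CPM with ethanol, which overlap, and the log2 change was -0.02 (95% interval -0.24 to 0.21, edgeR adjusted p = 0.996).

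PBRM1 (BAF180), the bromodomain scaffold of PBAF, stood at 181 and 158 against 146 and 135 CPM in SK-N-DZ, 197 and 211 against 144 and 173 CPM in KELLY, and 267 and 288 against 262 and 226 CPM in IMR-32. Every BRM014 library lay above both DMSO libraries of its line. Its mean log2 change over lines was 0.28 (SE 0.0868, edgeR adjusted p = 0.0098) and it was not called in any single line, and without KELLY DMSO replicate 1 (0.23) or SK-N-DZ BRM014 replicate 1 (0.24) it was not called. BRD7 and PHF10 were not called in any treatment comparison as counted, with log2 changes of -0.47 to -0.03 and -0.33 to 0.15. BRD7 shares annotated exon bases with ADCY7, and PHF10 with C6orf120.

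**Figure D2:**
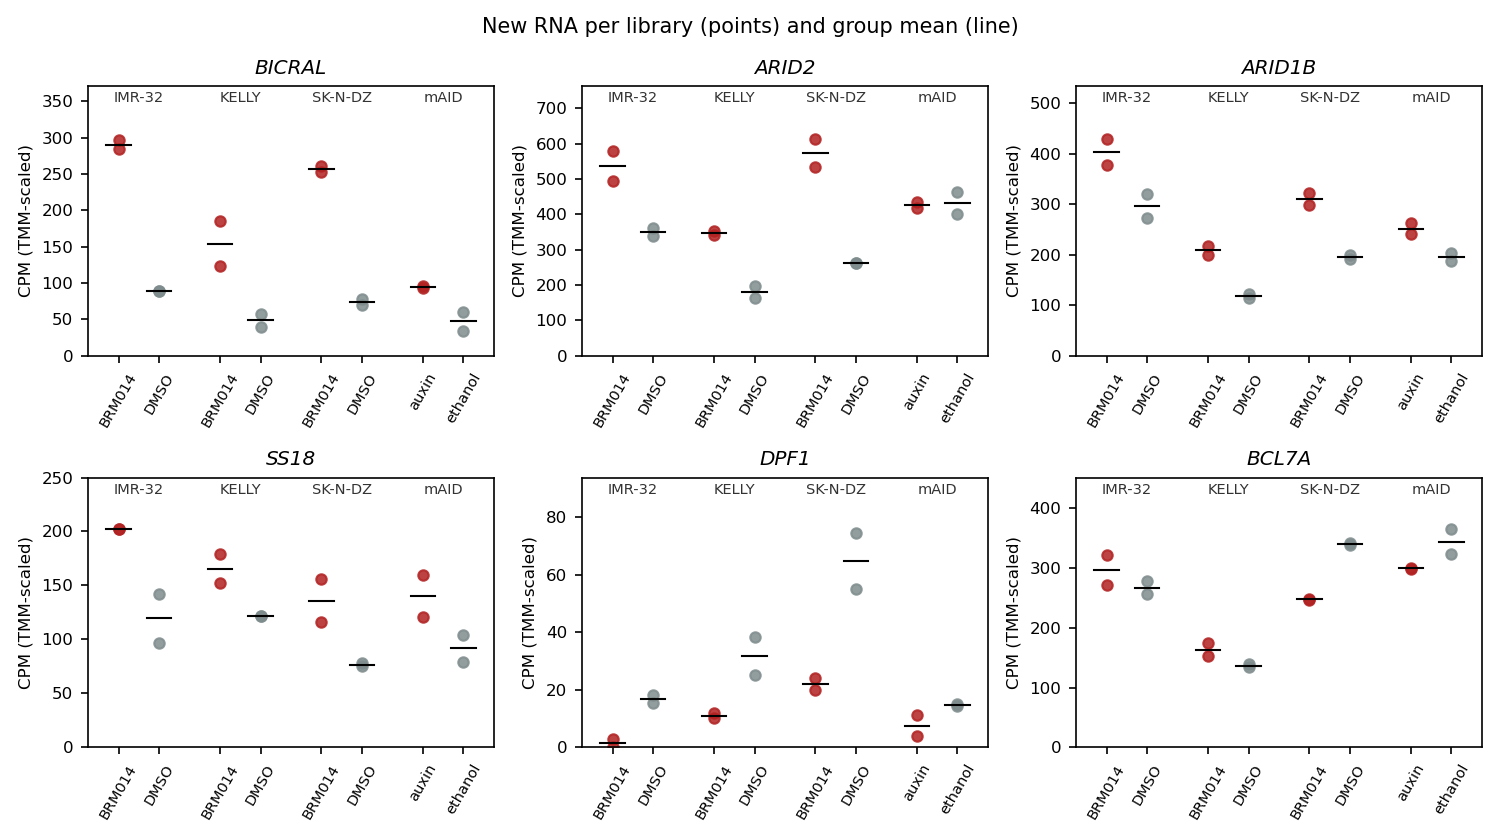
TMM-scaled CPM (y axis) of BICRAL, ARID2, ARID1B, SS18, DPF1 and BCL7A in each library, treated groups to the left of their vehicle, with a line at the mean of the 2 libraries. BICRAL and ARID1B are higher with BRM014 in every line, DPF1 is lower in every line, and BCL7A is lower in SK-N-DZ, where its treated libraries stand at 247 and 249 against 342 and 339 CPM.

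Of the DNA-binding ARID1 subunits of canonical BAF, ARID1B was called higher in all 3 lines and ARID1A in KELLY. ARID1B (chromosome 6, 156776020 to 157210779, plus strand) stood at 299 and 322 CPM with BRM014 against 200 and 191 CPM with DMSO in SK-N-DZ, at 199 and 218 against 123 and 115 CPM in KELLY, and at 429 and 378 against 320 and 273 CPM in IMR-32. No groups overlapped, and the log2 changes were 0.67 (SE 0.138, edgeR adjusted p = 0.000108), 0.81 (SE 0.143, adjusted p = 7.65e-06) and 0.44 (SE 0.135, adjusted p = 0.0183) in SK-N-DZ, KELLY and IMR-32. The IMR-32 change was no longer called without BRM014 replicate 1 (0.31) or DMSO replicate 2 (0.33), or with no filter on low counts (0.39, adjusted p = 0.0606). With auxin ARID1B stood at 262 and 241 CPM, against 204 and 187 CPM with ethanol, a log2 change of 0.36 (SE 0.135, edgeR adjusted p = 0.171). ARID1A, the paralog more often mutated in cancer, stood at 588 and 605 against 457 and 437 CPM in KELLY, where it rose by 0.42 on the log2 scale (SE 0.106, edgeR adjusted p = 0.00323). ARID1A was not called in SK-N-DZ (0.26, adjusted p = 0.0721) or in IMR-32, where 333 and 392 CPM with BRM014 overlapped 384 and 308 CPM with DMSO.

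Of the DPF subunits, which carry tandem PHD fingers, DPF1 fell. DPF1 (chromosome 19, 38211006 to 38229714, minus strand) is a neuronal form in the mouse. DPF1 stood at 19.9 and 24.0 CPM with BRM014 against 55.1 and 74.4 CPM with DMSO in SK-N-DZ, and at 11.8 and 10.2 against 38.4 and 25.1 CPM in KELLY. In IMR-32 it had 2 and 0 counts with BRM014 against 21 and 20 counts with DMSO. The groups did not overlap in any line. The log2 changes were -1.55 (SE 0.443, edgeR adjusted p = 0.00638) in SK-N-DZ and -1.53 (SE 0.458, adjusted p = 0.0157) in KELLY, and the scaled ratio in IMR-32 was 0.086 with an exact 95% interval of 0.0101 to 0.331 (edgeR adjusted p = 0.00213). With auxin DPF1 stood at 11.2 and 3.86 CPM, against 14.5 and 15.1 CPM with ethanol, and was not called (log2 change -1.0, SE 0.522, edgeR adjusted p = 0.462).

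The DPF1 calls rest on few counts. The SK-N-DZ call was lost without BRM014 replicate 1 (-1.43) or DMSO replicate 2 (-1.33). The KELLY call was lost without BRM014 replicate 1 (-1.63), BRM014 replicate 2 (-1.44) or DMSO replicate 1 (-1.18), and the IMR-32 call without BRM014 replicate 2 (-2.51). The mean log2 change of DPF1 over the lines was -2.18 (SE 0.348, edgeR adjusted p = 2.55e-07). DPF2 was not called in any treatment comparison (log2 changes -0.25 to 0.05), and DPF3 was not called in any either.

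SS18, the subunit fused to SSX proteins in synovial sarcoma, rose in SK-N-DZ and IMR-32. SS18 (chromosome 18, 26016253 to 26091217, minus strand) stood at 156 and 116 against 74.9 and 77.7 CPM in SK-N-DZ, at 179 and 152 against 122 and 122 CPM in KELLY, and at 202 and 202 against 97.0 and 142 CPM in IMR-32. All BRM014 libraries lay above their DMSO libraries, with log2 changes of 0.83 (SE 0.204, edgeR adjusted p = 0.00134) in SK-N-DZ and 0.77 (SE 0.196, adjusted p = 0.00321) in IMR-32, while KELLY was not called (0.44, adjusted p = 0.113). The SK-N-DZ call was lost without BRM014 replicate 1 (0.60) and the IMR-32 call without DMSO replicate 1 (0.50). With auxin SS18 stood at 121 and 160 CPM, against 104 and 79.2 CPM with ethanol (log2 change 0.63, SE 0.190, edgeR adjusted p = 0.0587). Its paralog SS18L1 (CREST), the neuronal form in the mouse, was called in SK-N-DZ, with 336 and 422 against 256 and 278 CPM (log2 change 0.50, SE 0.138, edgeR adjusted p = 0.00416). Without SK-N-DZ BRM014 replicate 2 the SS18L1 change was 0.33 and not called. The mean SS18L1 change over lines of 0.29 was 0.22 and not called without KELLY BRM014 replicate 2.

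The zinc-finger subunit BCL11A (chromosome 2, 60450520 to 60555154, minus strand), known as a repressor of fetal haemoglobin, rose in KELLY and with auxin. In KELLY it stood at 51.6 and 55.7 CPM with BRM014 against 28.2 and 25.9 CPM with DMSO, a log2 change of 0.98 (SE 0.230, edgeR adjusted p = 0.00107). With auxin it stood at 315 and 337 CPM, against 256 and 202 CPM with ethanol, a log2 change of 0.51 (SE 0.152, edgeR adjusted p = 0.049). The auxin call lay at the threshold. It was lost at 0.50 with other size factors, with no filter, with libraries thinned to the smallest total and in DESeq2. It was also lost without ethanol replicate 1 (0.68), ethanol replicate 2 (0.35), auxin replicate 1 (0.56) or auxin replicate 2 (0.45), and, at 0.51, without IMR-32 BRM014 replicate 1 or either IMR-32 DMSO library, which enter through the shared spread. In IMR-32, BCL11A stood at 343 and 302 against 226 and 260 CPM without a call (0.41, adjusted p = 0.077), and in SK-N-DZ 51.8 and 64.4 CPM overlapped 41.9 and 57.3 CPM. Its paralog BCL11B was not called in any treatment comparison (log2 changes -0.26 to 0.43).

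Among the shared subunits, the ATPase genes were not called in any treatment comparison as counted. SMARCA4 (chromosome 19, 10960825 to 11079426, plus strand) stood at 108 and 129 CPM with BRM014 against 164 and 145 CPM with DMSO in SK-N-DZ, at 104 and 126 against 110 and 107 CPM in KELLY, and at 81.0 and 82.9 against 90.4 and 107 CPM in IMR-32. With auxin it stood at 663 and 607 CPM, against 752 and 867 CPM with ethanol. The log2 changes were -0.38, 0.08, -0.26 and -0.35 in SK-N-DZ, KELLY, IMR-32 and SMARCA4-mAID (edgeR adjusted p = 0.0778, 0.831, 0.408 and 0.109). These counts follow the transcript, and the degradation of the SMARCA4 protein was not measured by them. With only the auxin and ethanol libraries in the fit, the auxin change of -0.35 was called (adjusted p = 0.0103). In SK-N-DZ, KELLY and IMR-32 the sign of the SMARCA4 change turned under other settings given in the closing section. SMARCA2 had at most 27 counts per library, 0 in all 4 labelled KELLY libraries, and its groups gave no call.

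SMARCC1 (BAF155), a scaffold of the core, rose in KELLY to 255 and 283 CPM, against 194 and 186 CPM with DMSO (log2 change 0.50, SE 0.133, edgeR adjusted p = 0.00527). This call was lost without BRM014 replicate 2 (0.41) or DMSO replicate 2 (0.47). SMARCC1 was not called in the other lines, where it stood at 211 and 174 against 201 and 198 CPM in SK-N-DZ and at 321 and 306 against 268 and 302 CPM in IMR-32. SMARCC2, SMARCD1, SMARCD2, SMARCE1 and ACTL6A, each with 38 or more counts in every labelled library, were not called in any treatment comparison as counted, and their log2 changes ranged from -0.50 (SMARCC2, SK-N-DZ, adjusted p = 0.0932) to 0.46 (SMARCC2, IMR-32, adjusted p = 0.219). A correction for GC content and length brought calls for SMARCD1 in SK-N-DZ and for SMARCC2 and SMARCD2 in IMR-32. SMARCB1, SMARCD3 and ACTL6B were counted at 0 to 46 per library and were not called either. In IMR-32, SMARCD3 had 2 counts with BRM014 against 19 with DMSO, a scaled ratio of 0.186 (exact 95% interval 0.021 to 0.77, counting error only). Mean SMARCD3 was 7.64 against 10.2 CPM in SK-N-DZ and 15.2 against 11.2 CPM in KELLY. With auxin it was 7.92 CPM, against 5.78 CPM with ethanol. BCL7C, outside the filter, had 0 to 7 counts per library.

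BCL7A (chromosome 12, 122019422 to 122062044, plus strand), counted here with the shared subunits, fell in SK-N-DZ. There it stood at 247 and 249 CPM with BRM014 against 342 and 339 CPM with DMSO (log2 change -0.46, SE 0.134, edgeR adjusted p = 0.00845). The call was lost when BRM014 replicate 1 (-0.46), BRM014 replicate 2 (-0.46) or DMSO replicate 1 (-0.42) was left out. BCL7A stood at 174 and 153 against 140 and 134 CPM in KELLY and at 271 and 322 against 256 and 279 CPM in IMR-32, which gave log2 changes of 0.25 and 0.15 without a call. BCL7B stood at 46.5 and 48 against 79.1 and 55.1 CPM in SK-N-DZ, 91.5 and 92.2 against 121 and 98.1 CPM in KELLY, and 13.3 and 45.0 against 50.0 and 44.8 CPM in IMR-32. It was called lower for the mean over lines only (log2 change -0.48, SE 0.176, edgeR adjusted p = 0.0276), and the call was lost without IMR-32 BRM014 replicate 1 (-0.29), IMR-32 DMSO replicate 1 (-0.46), KELLY DMSO replicate 1 (-0.43) or SK-N-DZ DMSO replicate 1 (-0.40). Without IMR-32 BRM014 replicate 2 the mean was -0.87.

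Base composition differed among the members that changed. BICRAL, SS18, PBRM1 and ARID2, which were higher with BRM014, have 44.0%, 42.5%, 40.4% and 40.8% GC in their longest annotated transcript, and DPF1 and BCL7B, which were lower, have 62.6% and 59.1%. ARID1B, which was higher, has 53.7%, as does BCL7A, and BICRA has 68.6%. In a fit that corrected each library for GC content and transcript length, BICRAL kept its call at 1.67, 1.46 and 1.62 in SK-N-DZ, KELLY and IMR-32, ARID2 at 0.87, 0.65 and 0.44, and ARID1B at 0.94, 0.78 and 0.65. SS18 kept its calls at 0.69 in SK-N-DZ and 0.70 in IMR-32. The DPF1 calls were lost in SK-N-DZ (-0.85) and KELLY (-1.06) and kept in IMR-32 (-3.00), and the BCL7A call in SK-N-DZ (-0.16), the SMARCC1 call in KELLY (0.37) and the calls of PBRM1 (0.04) and BCL7B (-0.01) for the mean were lost. The same fit added ARID1A, at 0.71 in SK-N-DZ and 0.40 in IMR-32, and ARID1B with auxin, at 0.49 (adjusted p = 0.0238). It also added BICRA, at 1.28 in SK-N-DZ (adjusted p = 0.0439) and 1.94 in IMR-32 (adjusted p = 0.0049). Of the shared subunits it added SMARCD1 in SK-N-DZ (0.48, adjusted p = 0.0055) and SMARCC2 (0.75, adjusted p = 0.0251) and SMARCD2 (0.69, adjusted p = 0.0162) in IMR-32, all higher. For the mean over lines it added SMARCA4 (0.26), SMARCC2 (0.37) and SMARCD2 (0.32), all higher, and BRD7 (-0.41), lower. With the correction, 8 members were higher and 0 lower in SK-N-DZ, 5 higher and 0 lower in KELLY and 8 higher and 1 lower in IMR-32. The shares of all genes called in the corrected fit are not given here, so these counts cannot be set against a background. The part of base composition in the uncorrected changes was not tested.

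**Figure D3:**
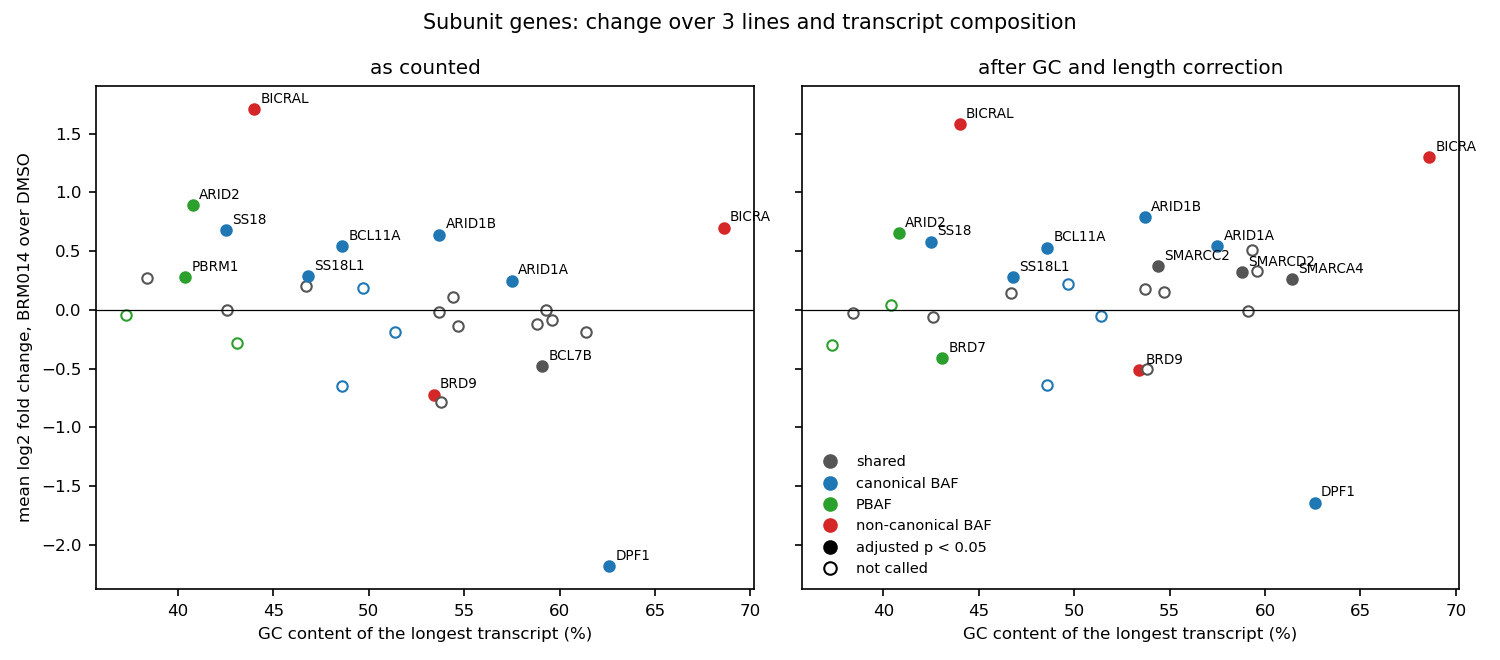
Mean log2 change with BRM014 over the 3 lines (y axis) against the GC percentage of each member's longest annotated transcript (x axis), as counted and after correction for GC content and length, with SMARCA2 left out. ARID2 moves to 0.65 and PBRM1 to 0.04 after correction, from 0.89 and 0.28 as counted, and BICRAL is at 1.58 corrected and 1.71 as counted.

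Whether the response differed between lines, and between inhibitor and degron, was tested directly. The BRM014 effect differed among SK-N-DZ, KELLY and IMR-32 for 1 of 29 members (3.45%, against 6.47% of all genes tested), which was BCL7A (edgeR adjusted p = 0.0155, log2 changes -0.46, 0.25 and 0.15), and after the GC and length correction its adjusted p was 0.121. The same test gave adjusted p = 0.968 for BICRAL, 0.123 for ARID2, 0.507 for ARID1B, 0.636 for SS18 and 0.496 for DPF1. The effect of BRM014 in IMR-32 minus that of auxin in SMARCA4-mAID differed from 0 for 1 of 29 members (3.45%), against 1.06% higher and 0.887% lower among all genes (1.95%). That member was ARID2, at 0.63 on the log2 scale (SE 0.166, 95% interval 0.31 to 0.96, edgeR adjusted p = 0.0203). That call was lost without IMR-32 BRM014 replicate 1 (0.49), IMR-32 DMSO replicate 1 (0.58), ethanol replicate 1 (0.50) or auxin replicate 2 (0.58), and with the GC and length correction (0.50, adjusted p = 0.101). For BICRAL this difference was 0.69 (SE 0.299, 95% interval 0.10 to 1.28, edgeR adjusted p = 0.29). Line, vehicle, agent and dose all differ between these arms.

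Vehicle-treated lines differed in many subunit genes, most widely in BCL11A, BCL11B, SMARCA2 and DPF3. Between SK-N-DZ and IMR-32, 7 members were higher and 10 lower of 29 in SK-N-DZ (58.6%), against 21.2% and 22.9% of all genes tested (44.1%). Between KELLY and IMR-32, 4 were higher and 12 lower in KELLY (55.2%), against 18.1% and 21.6% (39.6%). Between SK-N-DZ and KELLY, 11 were higher and 3 lower in SK-N-DZ (48.3%), against 16.6% and 15.2% (31.8%). These comparisons share libraries and are given side by side.

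**Figure D4:**
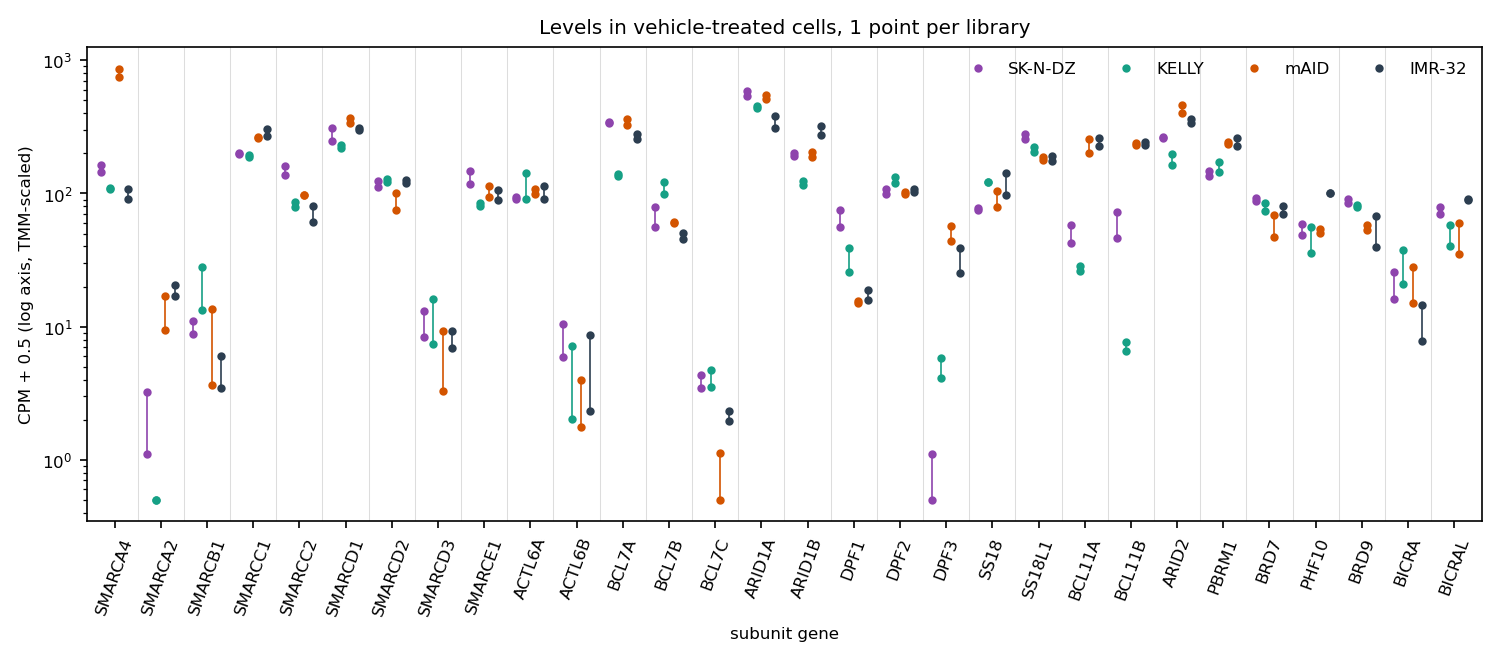
CPM plus 0.5 of each member in each vehicle-treated library (log axis), by line. BCL11A, BCL11B, SMARCA2 and DPF3 spread most between lines, and SMARCA4 stands apart in SMARCA4-mAID cells at 752 and 867 CPM.

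SMARCA4 made up nearly all ATPase transcript in SK-N-DZ, KELLY and SMARCA4-mAID, and most of it in IMR-32. Per base of annotated exons it accounted for 99.1% of the pair in SK-N-DZ, 100% in KELLY, 98.7% in SMARCA4-mAID and 86.3% in IMR-32. Under the length that favoured it most, its IMR-32 share was 92.4%. Between ethanol-treated SMARCA4-mAID and DMSO-treated IMR-32, mean SMARCA4 was 809 against 98.8 CPM and mean SMARCA2 was 12.7 against 18.2 CPM. SMARCA2 (chromosome 9, 1980290 to 2193624, plus strand) had 0 counts in both KELLY DMSO libraries, where 0 of 325 ATPase counts allows a share of up to 0.923%, and 27 and 18 counts in IMR-32 DMSO. It was at least 18.2-fold lower in KELLY than in IMR-32, taken against 3 counts over the group. SK-N-DZ DMSO had 1 and 5 counts of SMARCA2, a log2 difference of -3.34 from IMR-32 (SE 0.950, edgeR adjusted p = 0.00257), which was -2.72 and not called without SK-N-DZ DMSO replicate 1.

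**Figure D5:**
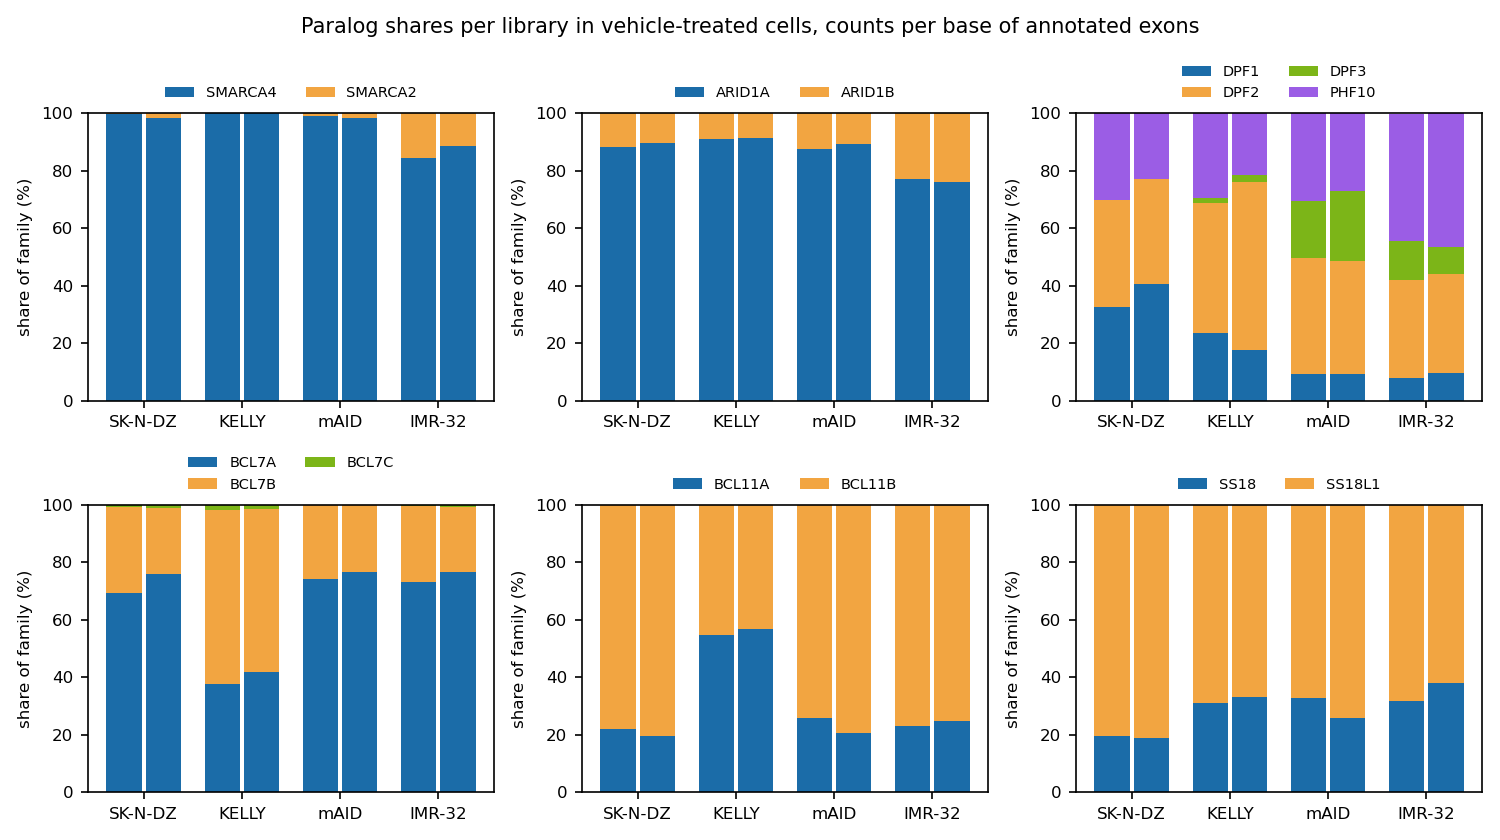
Share of each paralog within its family (y axis, percent of the family's counts per base of annotated exons) in each vehicle library of SK-N-DZ, KELLY, SMARCA4-mAID and IMR-32, for the ATPase, ARID1, DPF, BCL7, BCL11 and SS18 families. KELLY differs from the other lines in BCL7 and BCL11, with BCL7A at 39.4% and BCL11A at 55.6%.

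Within the ARID1 pair, ARID1A led in every vehicle group, at 89.0% in SK-N-DZ, 91.3% in KELLY, 88.5% in SMARCA4-mAID and 76.7% in IMR-32 per base of annotated exons. Over the 4 ways of setting length the IMR-32 share ran from 59.6% to 76.7%. ARID1B was lower in KELLY than in IMR-32, with 123 and 115 against 320 and 273 CPM (log2 difference -1.32, SE 0.142, edgeR adjusted p = 2.36e-13), and stood at 200 and 191 CPM in SK-N-DZ.

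Of the DPF family, DPF3 was read mainly in IMR-32 and its engineered derivative. DPF3 had 1 and 0 counts in SK-N-DZ and stood at 3.60 and 5.32 CPM in KELLY, 43.4 and 56.6 CPM in SMARCA4-mAID and 38.2 and 24.7 CPM in IMR-32. The log2 difference of KELLY from IMR-32 was -2.83 (SE 0.532, edgeR adjusted p = 6.76e-06), and the scaled ratio of SK-N-DZ to IMR-32 was 0.00891 (exact 95% interval 0.000223 to 0.0511). DPF1 ran the other way, at 55.1 and 74.4 CPM in SK-N-DZ, 38.4 and 25.1 CPM in KELLY, 14.5 and 15.1 CPM in SMARCA4-mAID and 15.4 and 18.3 CPM in IMR-32, a log2 difference of 1.94 between SK-N-DZ and IMR-32 (SE 0.434, edgeR adjusted p = 0.000125) that was 0.67 and not called after the GC and length correction. Per base of annotated exons DPF1, DPF2, DPF3 and PHF10 made up 37.0%, 36.7%, 0.114% and 26.2% of the family in SK-N-DZ, 21.1%, 50.7%, 1.97% and 26.2% in KELLY, 9.42%, 39.6%, 22.3% and 28.7% in SMARCA4-mAID and 8.71%, 34.2%, 11.7% and 45.3% in IMR-32. The leading member in SK-N-DZ and IMR-32 depended on the length used, and in KELLY and SMARCA4-mAID it was DPF2 under all 4.

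The actin-like pair was mostly ACTL6A, at 88.5%, 94.4%, 96.7% and 92.7% in SK-N-DZ, KELLY, SMARCA4-mAID and IMR-32, and the neuronal form ACTL6B had 27, 13, 7 and 13 counts per group. ACTL6A shares annotated exon bases with MRPL47. SS18L1 led SS18 in every vehicle group under all 4 lengths, and SS18 made up 19.1%, 32.1%, 29.3% and 34.9%.

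The BCL7 and BCL11 genes differed between lines. BCL7A stood at 342 and 339 CPM in SK-N-DZ, 140 and 134 CPM in KELLY, 324 and 365 CPM in SMARCA4-mAID and 256 and 279 CPM in IMR-32, with log2 differences of 1.31 between SK-N-DZ and KELLY (SE 0.133, edgeR adjusted p = 3.63e-14) and -0.96 between KELLY and IMR-32 (SE 0.138, adjusted p = 6.87e-09). The BCL7A share per base of annotated exons was 72.6%, 39.4%, 75.5% and 74.6% in SK-N-DZ, KELLY, SMARCA4-mAID and IMR-32, so BCL7B led in KELLY and BCL7A elsewhere, under all 4 lengths. BCL11A stood at 41.9 and 57.3 CPM in SK-N-DZ, 28.2 and 25.9 CPM in KELLY, 256 and 202 CPM in SMARCA4-mAID and 226 and 260 CPM in IMR-32. BCL11B (chromosome 14, 99169287 to 99271524, minus strand), a regulator of corticospinal neurons and T cells in the mouse, stood at 46.1 and 72.7 CPM in SK-N-DZ, 7.19 and 6.08 CPM in KELLY, 229 and 240 CPM in SMARCA4-mAID and 232 and 244 CPM in IMR-32.

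The groups of SK-N-DZ, KELLY and IMR-32 did not overlap for either BCL11 gene. The log2 differences from IMR-32 were -2.28 (SE 0.179, edgeR adjusted p = 5.25e-20) in SK-N-DZ and -3.15 (SE 0.200, adjusted p = 1.38e-25) in KELLY for BCL11A, and -1.99 (SE 0.186, adjusted p = 4.2e-16) and -5.13 (SE 0.268, adjusted p = 2.65e-31) for BCL11B. All 4 kept their calls with the GC and length correction. The levels of BCL11A and BCL11B in IMR-32 and SMARCA4-mAID overlapped.

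Among the remaining members, PHF10 was lower in KELLY than in IMR-32 (55.8 and 35.0 against 100 and 101 CPM, log2 difference -1.13, SE 0.271, edgeR adjusted p = 0.00041), and SMARCC2 was higher in SK-N-DZ than in IMR-32 (137 and 159 against 60.3 and 79.6 CPM, log2 difference 1.09, SE 0.213, edgeR adjusted p = 1.32e-05). SMARCC2 shares annotated exon bases with MYL6. SMARCC1 led SMARCC2 in KELLY (72.3%), SMARCA4-mAID (75.3%) and IMR-32 (82.1%), and in SK-N-DZ the leader depended on the length. SMARCD1 led its family in every vehicle group. With the GC and length correction, 10 of the 17 calls in SK-N-DZ against IMR-32 were lost or turned, among them SS18 (-0.29), PHF10 (-0.38) and DPF1, as were 6 of the 16 in KELLY against IMR-32, among them BCL7B (0.57) and BICRAL (-0.43), and 3 of the 14 in SK-N-DZ against KELLY. The corrected counts were 4 higher and 8 lower, 2 higher and 10 lower, and 8 higher and 4 lower in these 3 comparisons. Here too the shares of all genes in the corrected fit are not given.

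The engineered line differed from its parent in SMARCA4, ARID1A, ARID1B, PHF10 and BICRAL. Ethanol-treated SMARCA4-mAID cells had 2 members called higher and 3 lower of 29 than DMSO-treated IMR-32 cells (17.2%), against 2.67% and 3.49% of all genes tested (6.16%), and the line and its vehicle cannot be told apart here. SMARCA4 stood at 752 and 867 CPM in SMARCA4-mAID against 90.4 and 107 CPM in IMR-32, a log2 difference of 3.04 (SE 0.142, edgeR adjusted p = 3.01e-33), the largest of the members. ARID1A was higher, at 514 and 552 against 384 and 308 CPM (log2 difference 0.62). ARID1B (-0.60, edgeR adjusted p = 0.00106), PHF10 (-0.95, adjusted p = 0.0159) and BICRAL (-0.93, adjusted p = 0.00297) were lower. ARID1B lost its call without IMR-32 DMSO replicate 1 (-0.48) or ethanol replicate 2 (-0.52), PHF10 when any 1 of the 4 libraries was left out (-0.97 to -0.88), and BICRAL without ethanol replicate 2 (-0.55).

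Some paralog shares, which were not tested, differed between treated and vehicle libraries. The DPF1 share of its family was 1.42% and 0% in BRM014-treated IMR-32 libraries against 7.89% and 9.78% with DMSO, 10.3% and 8.51% against 23.5% and 17.7% in KELLY, 15.1% and 19.9% against 32.8% and 40.6% in SK-N-DZ, and 7.34% and 2.31% with auxin against 9.51% and 9.34% with ethanol. No treated library overlapped its vehicle. The ARID1B share within the ARID1 pair was higher without overlap in all 4 treated groups, at 14.4% and 13.9% against 11.7% and 10.4% in SK-N-DZ, 10.7% and 11.4% against 8.75% and 8.57% in KELLY, 31.5% and 25.6% against 22.9% and 24.0% in IMR-32, and 15.5% and 13.9% with auxin against 12.4% and 10.8% with ethanol. The SS18 share in IMR-32 was 46.1% and 47.7% with BRM014 against 31.7% and 38.2% with DMSO, and under 3 of the 4 lengths SS18 then led SS18L1. It was 38.6% and 44.4% with auxin against 32.7% and 26.0% with ethanol, and it overlapped in KELLY (39.2% and 29.9% against 31.2% and 33.3%) and SK-N-DZ (27.7% and 18.6% against 19.5% and 18.8%). BICRAL led BICRA in each treated group, at 90.8% against 79.7% in SK-N-DZ, 83.6% against 64.6% in KELLY, 91.5% against 89.9% in IMR-32 and 82.6% with auxin against 70.6% with ethanol, with overlapping libraries in IMR-32 and SMARCA4-mAID.

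Other remodelling complexes that share ACTL6A with BAF, INO80 and TIP60/EP400, were read from a list of 28 genes, 26 of which were tested. With BRM014, 5 were higher and 1 lower in SK-N-DZ, 1 was called in KELLY, which was higher, and 3 were higher and 3 lower in IMR-32, beside 19.4%, 11.6% and 12.8% of all genes called in SK-N-DZ, KELLY and IMR-32. With auxin 0 were called in edgeR, with 2 higher at an unadjusted p below 0.05 and 0 in DESeq2. MBTD1, a TIP60 subunit that reads methylated histone H4, was called higher in all 3 lines (log2 changes 0.46, 0.70 and 0.55 in SK-N-DZ, KELLY and IMR-32). MORF4L1, a chromodomain subunit, was higher in SK-N-DZ (0.57) and IMR-32 (0.58), and the list's medians were 0.06, -0.08 and -0.05 in SK-N-DZ, KELLY and IMR-32.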

How the data were processed

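Newly made messenger RNA was counted in 18 libraries, grouped by the sample labels. The authors deposited raw counts per gene symbol for each library, per the labels and the file headers, and the submitters' processing notes name HISAT, HTSeq, DESeq2 and hg38, with no versions. The sources used here do not give the rule for counting a converted read, the annotation or the strand setting. Reads with no feature made up 46.4% to 57.4% of each labelled library and 65.2% to 66.7% of each unlabelled one, and stayed out of library sizes and tests.

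The 16 labelled libraries entered a group-means model in edgeR 4.0.16 (R 4.3.3) with TMM factors, the filterByExpr filter (12853 genes), the quasi-likelihood test with 8 residual degrees of freedom and Benjamini-Hochberg adjustment over all genes. DESeq2 1.42.0 was an alternative. Each change is set against the rest of the library's genes. Each SE was derived as the absolute log2 change divided by the square root of edgeR's F statistic. Intervals of log2 differences use this SE with a normal approximation and include the spread between libraries. Exact intervals of ratios and the floor of 3 counts cover counting error only. The script was checked on simulated counts with known changes. In the simulated BRM014 comparison of KELLY, 59% of genes with a log2 change of 1 in either direction were called. At a log2 change of 2 it was 97%, and 5 unchanged genes were called. The changed genes were drawn only from those above a floor on mean counts. KELLY BRM014 libraries were also deeper than those of SK-N-DZ and IMR-32. These rates therefore do not cover members with few counts or the shallower BRM014 libraries. A member that was not called may therefore still have changed. The biological coefficient of variation was 0.143, and the libraries of a group differed by more than sampling noise (chi-square over its degrees of freedom, 2.37 to 3.41).

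Lengths, positions and GC content came from GENCODE v29, in which 25861 of 28063 symbols were found. Paralog shares used counts per base of annotated exons, with 3 other lengths tried. Start regions came from RefSeq. All members are accounted for, those called in a treatment or difference comparison by library. The members, lists, tests and alternatives were chosen with earlier results of these data known.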

Additional observations from a re-analysis of the deposited data

Results flagged for a closer look

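The effect of BRM014 on BCL7A differed among the lines (edgeR adjusted p = 0.0155 for the difference itself), with log2 changes of -0.46 in SK-N-DZ, 0.25 in KELLY and 0.15 in IMR-32. Both treated libraries were lower than both DMSO libraries in SK-N-DZ and higher in KELLY, and in IMR-32 the libraries overlapped. The difference among lines was no longer called after the GC and length correction or when the libraries were thinned. With the correction the SK-N-DZ change of BCL7A was -0.16.

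The effect of BRM014 on ARID2 in IMR-32 differed from that of auxin in SMARCA4-mAID cells (edgeR adjusted p = 0.0203 for the difference itself). ARID2 changed by 0.62 on the log2 scale with BRM014 and by -0.02 with auxin. The call of this difference was lost with the GC and length correction (0.5, edgeR adjusted p = 0.101). It was also lost in 4 of the fits with 1 library left out (0.49 to 0.58). Line, vehicle, agent and dose all differ between the arms.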

How the results depend on the processing

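The counts of called members kept within 1.5 times of the reported values under most alternatives, which were other size factors (RLE), no filter, a replicate block, a GC and length correction, both together, only the groups compared, DESeq2, each library left out and, added after seeing the data, thinning to 724913 counts. With GC and length correction, with or without the block, IMR-32 gave 9 in place of 5, and the difference among lines and that between BRM014 and auxin gave 0. Auxin gave 1 with RLE factors, no filter, thinning or DESeq2 and 4 with only the groups compared, which gave 2 for BRM014 minus auxin. Thinning gave 0 among lines and 8 in place of 14 for SK-N-DZ against KELLY. The cause was not tested. Unlabelled KELLY background was 0.171% of raw counts and 49.2% when scaled to library totals. With 1 library left out, the counts ran from 4 to 8 in SK-N-DZ, 0 to 3 with auxin, 0 to 2 among lines, 0 to 1 for BRM014 minus auxin, 8 to 14 for SK-N-DZ against KELLY and 2 to 6 for SMARCA4-mAID against IMR-32. Where that left a group with 1 library, the lone library was assumed to vary like the others.

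Signs turned for SMARCA4, to 0.18 in IMR-32, 0.22 in SK-N-DZ, 0.26 for the mean, -0.41 for SK-N-DZ against IMR-32 and -0.08 for SK-N-DZ against KELLY with GC and length correction, with or without the block, and in KELLY to -0.07 without BRM014 replicate 2 (range 0.21 to -0.07 with 1 library left out) and -0.03 when thinned. ARID2 in SK-N-DZ against IMR-32 turned to 0.12 with the correction, with or without the block, and ARID1A in SK-N-DZ against KELLY to -0.11, or -0.12 with the block. The replicate numbers did not pair the libraries (correlations of deviations -0.004, -0.024, 0.015 and 0.009 over 6446 genes), and the replicate block moved the auxin count from 2 to 3, adding SS18, and changed no other count.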

Other observations

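Of 4 genes that act on the subunit switch (REST, RCOR1, PTBP1 and PTBP2), edgeR called 3 in SK-N-DZ, 1 in KELLY and 3 in IMR-32 with BRM014, beside 19.4%, 11.6% and 12.8% of all genes. With auxin it called 0, with 0 at an unadjusted p below 0.05 and 0 in DESeq2. REST, a repressor of neuronal genes, stood at 16 and 16.4 CPM with BRM014 against 45.5 and 46.8 CPM with DMSO in SK-N-DZ (log2 change -1.51, edgeR adjusted p = 0.00214), and at 162 and 215 against 93.4 and 120 CPM in IMR-32 (0.83, adjusted p = 0.0285). In KELLY, REST had 9 counts with BRM014 and 12 with DMSO and was not called. The difference of the REST effect among lines had an adjusted p of 0.000774. RCOR1, the REST corepressor, rose in SK-N-DZ (1.09) and KELLY (0.74), and PTBP2, the neuronal splicing regulator, rose in SK-N-DZ (0.45) and IMR-32 (0.61). PTBP1 fell in IMR-32 (-0.58). These changes were not corrected for GC content.

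ACTB, the actin that is itself a SWI/SNF subunit and is no member of the list, stood at 1200 and 1260 CPM with BRM014 against 2110 and 2290 CPM with DMSO in SK-N-DZ (log2 change -0.84, edgeR adjusted p = 4.789e-14), and at 1370 and 1230 against 1730 and 1560 CPM in IMR-32 (-0.34). In KELLY its change was -0.02, and the effect differed among lines (adjusted p = 3.155e-07). With auxin ACTB stood at 1300 and 1520 CPM, against 1750 and 1660 CPM with ethanol (-0.28, edgeR adjusted p = 0.047), and DESeq2 did not call this change. The unlabelled KELLY libraries held 202 and 85 ACTB counts.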
